A study of Mus musculus with 27 samples.

Results

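Spib, Spi1 and Spic are 3 of the 54446 genes counted in 27 bulk RNA sequencing libraries of sorted mouse cells. They were picked by symbol because Spib was abundant in libraries with much Ccl21a and little B cell RNA, so their levels across the library classes below are a description and were not tested. Spib lies on chromosome 7, 44525993 to 44532071, minus strand (ENSMUSG00000008193.13, mm10). Spi1 lies on chromosome 2, 91082390 to 91115756, plus strand (ENSMUSG00000002111.8). Spic lies on chromosome 10, 88674772 to 88685015, minus strand (ENSMUSG00000004359.16).

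Mice were 12 weeks old and of the non-obese diabetic strain (NOD), which develops autoimmune diabetes. TG- mice were NOD/ShiLtJ, and TG+ mice were Ins2-CCL21 NOD, which express the chemokine CCL21 from an insulin promoter in pancreatic beta cells. By label, leukocytes of islet infiltrates (islet CD45, 4 TG- and 4 TG+), islet cells sorted by the stromal surface protein gp38 (podoplanin; gp38-high, 2 and 2; gp38-low, 4 and 4) and fibroblastic reticular cells of skin-draining lymph nodes (FRC, 4 TG- and 3 TG+) were collected. Whether the replicates stem from different animals is not in the labels, and p-values measure only the spread between these libraries, which may be technical. Each library held 8517844 to 25194443 reads in genes.

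The expressed genes went against many of these labels. The libraries were therefore also described in 4 classes made from their own RNA, in reads of a gene scaled to a common total of reads in genes (CPM). Ptprc, which encodes the leukocyte antigen CD45, was above 100 CPM in 8 libraries. Ccl21a, the T cell zone chemokine, was above 1000 CPM in 7, Msln, the mesothelial protein mesothelin, was above 100 CPM in 4, and 8 libraries passed none of the 3 limits. The limits fell in wide gaps: the lowest Ptprc value above its limit was 169 CPM and the highest below it 5.79, against 2162 and 5.28 CPM for Ccl21a and 573 and 2.52 CPM for Msln. Of the 8 libraries labelled islet CD45, 1 was Ptprc-high and 4 were Ccl21a-high. Of the 7 labelled lymph node FRC, 5 were Ptprc-high and 0 were Ccl21a-high. The Ccl21a-high libraries were 3 labelled islet CD45 TG-, 1 islet CD45 TG+, 2 islet gp38-low TG+ and 1 islet gp38-low TG-. Samples are called below by their labels only where a comparison of labels is meant. Libraries of a class correlated with each other at 0.909 to 0.994 (Pearson, across genes), and no 2 files were identical. Between classes the highest correlation was 0.92, between a Msln-high and a remaining library, so these 2 classes were not fully apart on this measure.

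SPIB, PU.1 (encoded by Spi1) and SPIC form one branch of the Ets family of transcription factors, whose DNA-binding domain contacts a purine-rich sequence around GGAA. PU.1 directs myeloid and early B cell development and acts with the factors IRF4 and IRF8. SPIB is known from B cells, plasmacytoid dendritic cells, the M cells that cover Peyer's patches and thymic medullary epithelium, in the last 2 of which the cytokine RANKL and NF-kB drive it. SPIC is known for the iron-recycling macrophages of the splenic red pulp and bone marrow, where haem induces it.

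The 250 bases before the RefSeq start sites of Spib and Spic are shown because both genes were high in the same Ccl21a-high libraries. They were read from RefSeq on GRCm38.p6, the assembly of mm10, on the minus strand at chr7:44532072-44532321 and chr10:88683024-88683273. The Spib window ends at the start of the annotated gene, where 1 of its 3 transcripts begins. The Spic window precedes the first exon of 3 of its 4 annotated transcripts and lies in an intron of the fourth. Capitals mark the Ets core, GGAA on either strand and here TTCC in both, and in Spib also a match to the kappaB consensus of NF-kB.
Spib: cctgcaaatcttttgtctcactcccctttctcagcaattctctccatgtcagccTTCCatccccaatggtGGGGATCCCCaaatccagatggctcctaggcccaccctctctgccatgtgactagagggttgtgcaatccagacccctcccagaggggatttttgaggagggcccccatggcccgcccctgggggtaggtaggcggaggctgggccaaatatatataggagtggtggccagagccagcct
Spic: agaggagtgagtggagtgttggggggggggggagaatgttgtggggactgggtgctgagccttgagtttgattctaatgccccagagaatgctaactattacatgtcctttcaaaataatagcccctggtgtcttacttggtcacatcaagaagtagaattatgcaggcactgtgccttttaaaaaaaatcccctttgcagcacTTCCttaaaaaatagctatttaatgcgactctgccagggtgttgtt

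The Spib window held 1 Ets core and 1 stretch that matched kappaB on both strands, at bases 71 to 80 of the window as printed. The Spic window held 1 Ets core, 43 bases before the start, and no kappaB match. Neither window held GAGGAA, the core that PU.1 prefers, or the octamer ATGCAAAT of B cell promoters, on either strand. Among 32851 RefSeq windows of the same length, 93.4% held an Ets core, 23.3% GAGGAA, 1.60% the octamer and 3.90% a kappaB match, by a consensus that was chosen by hand and that sets both this share and the match in Spib. GAGGAA contains the Ets core, so these shares overlap. A match of letters is not a measurement of binding.

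Spib was high in 2 of the 4 classes. In the 7 Ccl21a-high libraries it was read at 246, 234 and 220 CPM (islet CD45 TG- replicates 1, 2 and 3), 233 CPM (islet CD45 TG+ replicate 3), 183 and 222 CPM (islet gp38-low TG+ replicates 1 and 3) and 214 CPM (islet gp38-low TG- replicate 3). In the 8 Ptprc-high libraries it ran from 114 to 349 CPM with a median of 197. The ranges of these 2 classes overlapped, and the Ccl21a-high libraries varied less (SD 20.2 CPM, n = 7) than the Ptprc-high ones (SD 90.3 CPM, n = 8). The order of the 2 medians turned with the scaling: with Gm26917, an abundant non-coding RNA that took 5.31% to 36.0% of reads in genes, and mitochondrial genes left out of the total, the medians were 270 CPM in the Ccl21a-high and 289 CPM in the Ptprc-high libraries.

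The other 2 classes held far less Spib, and in unequal amounts. The 4 Msln-high libraries had 8.71, 10.2, 14.5 and 16.6 CPM. The remaining 8 had 0.761 to 1.91 CPM with a median of 1.31. Every Msln-high library lay above every one of these 8 and below every Ccl21a-high library. By class medians, Spib in the Ccl21a-high libraries was 18.0 times that in the Msln-high and 170 times that in the remaining libraries, and the Msln-high median was 9.41 times the remaining one.

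Spi1, the gene of PU.1, was high in the Ptprc-high class and near 0 in the other 3. In the Ptprc-high libraries it ran from 75.8 to 145 CPM with a median of 129. The 7 Ccl21a-high libraries had 0.0914 to 0.833 CPM, the Msln-high ones at most 0.0584 CPM and the others at most 0.274 CPM. A count of 0 allows up to 3 reads, 0.119 to 0.352 CPM by library, so most of these low values lay at the limit of detection. Summed over libraries, 27 Spi1 reads in the Ccl21a-high class stood against 11850 in the Ptprc-high class, a ratio of 454 per read in genes (95% interval 312 to 689, counting error only).

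Spic went the other way and was highest in the Ccl21a-high libraries. It was read at 49.3, 51.6 and 27.8 CPM (islet CD45 TG- replicates 1, 2 and 3), 58.3 CPM (islet CD45 TG+ replicate 3), 34.1 and 33.0 CPM (islet gp38-low TG+ replicates 1 and 3) and 39.6 CPM (islet gp38-low TG- replicate 3). The 8 Ptprc-high libraries had 1.09 to 9.39 CPM with a median of 3.98, and no library of either class overlapped the other. The Ccl21a-high median was 9.93 times the Ptprc-high one. In the Msln-high and remaining libraries together, 4 Spic reads were counted in all, 2 in each class. The ratio of the Ccl21a-high class to them was 1550 (95% interval 429 to 12801) and 2794 (773 to 23075).

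**Figure D1:**
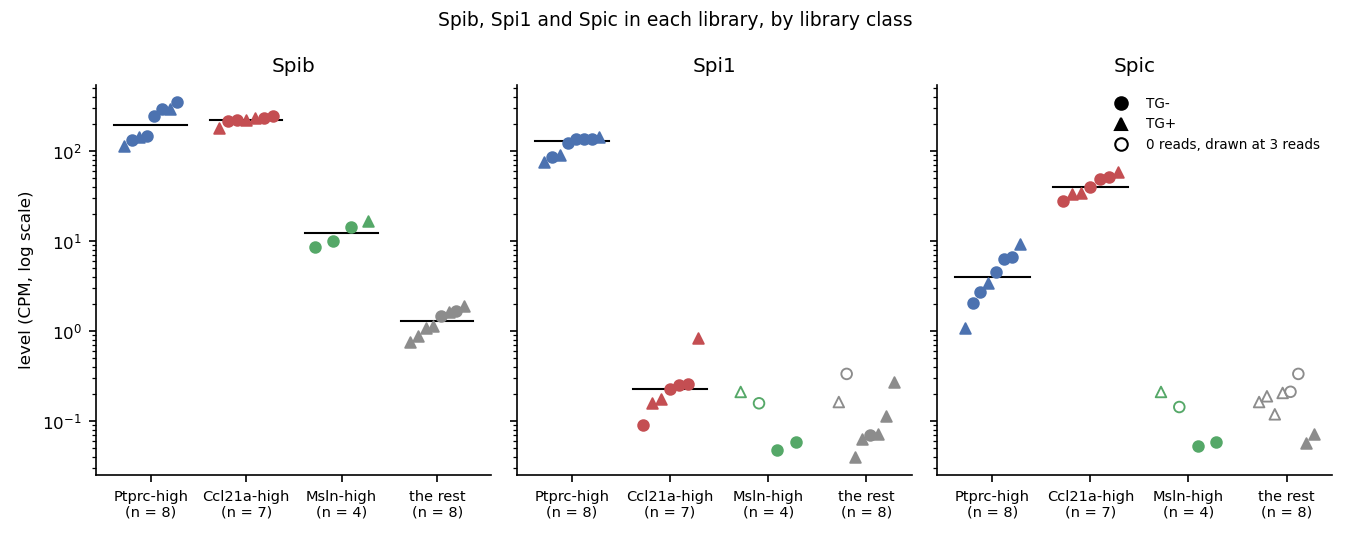
CPM of Spib, Spi1 and Spic (log axis) in each of the 27 libraries by class, circles for TG- and triangles for TG+, with the class median as a line where no library was at 0 reads. Spib was high in both the Ptprc-high and Ccl21a-high classes, Spi1 reached 75.8 CPM or more in the Ptprc-high class alone, and Spic reached 27.8 CPM or more in the Ccl21a-high class alone.

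Per kilobase of exon, a rough scale for comparing the 3 genes, Spib led in both high classes. The length merges all annotated exons of a gene (Spib 2868, Spi1 2695 and Spic 3841 bases). Which transcripts were expressed was not determined, and the ratios between genes depend on this length. Median levels in the Ptprc-high libraries were 68.5 CPM per kb for Spib, 48.0 for Spi1 and 1.04 for Spic. In the Ccl21a-high libraries they were 77.5 for Spib, 10.3 for Spic and 0.0834 for Spi1. Spib exceeded Spic 5.35 to 10.6 times per kb in the 7 Ccl21a-high libraries and 16.3 to 359 times in the 8 Ptprc-high ones. The 3 genes thus formed a Spib and Spi1 pair in one class and a Spib and Spic pair in the other.

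The genotype labels did not divide the members within the Ccl21a-high class. Spib ran from 214 to 246 CPM in its 4 TG- and from 183 to 233 CPM in its 3 TG+ libraries. Spic ran from 27.8 to 51.6 CPM and from 33.0 to 58.3 CPM. Both pairs of ranges overlapped, and no test was made within classes that had been cut from measured genes. Between classes the genotypes were unequal. The Ptprc-high class held 5 TG- and 3 TG+ libraries, the Ccl21a-high 4 and 3, the Msln-high 3 and 1 and the remaining 2 and 6. A part of genotype in the differences between classes was not tested.

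B cell genes, the usual company of Spib, were mostly low in the Ccl21a-high libraries. Cd79a, which encodes a chain of the B cell receptor complex, ran from 267 to 754 CPM in the Ptprc-high libraries and from 1.02 to 2.92 CPM in the Ccl21a-high ones. The ratio of Spib to Cd79a was 0.354 to 0.466 in every Ptprc-high library and 73.1 to 215 in the Ccl21a-high ones. This contrast is the one by which Spib was picked. Ms4a1, which encodes CD20, Pax5, the B lineage factor, and Pou2af1, a coactivator of octamer factors in B cells, had medians of 0.191, 0.675 and 0.312 CPM there, against 130, 143 and 123 CPM in the Ptprc-high class. The 20 listed B cell genes summed to 255 to 409 CPM in the Ccl21a-high and 9706 to 18751 CPM in the Ptprc-high libraries, with no gene of the list at 0 in every Ccl21a-high library. Cr2, a complement receptor of B cells and follicular dendritic cells, had up to 34.0 CPM in the Ccl21a-high libraries. The 12 others low in Ptprc had at most 3.45 CPM of it. Cr2 was the 1 of the 20 genes higher in all 7 than in those 12, as 6.44% of all genes were. Most of the smaller sum was Ebf1 (median 172 CPM) and Cd74 (median 124 CPM), which fibroblasts and antigen-presenting cells also express. In bulk RNA, fewer cells of a type cannot be told apart from less RNA per cell.

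**Figure D2:**
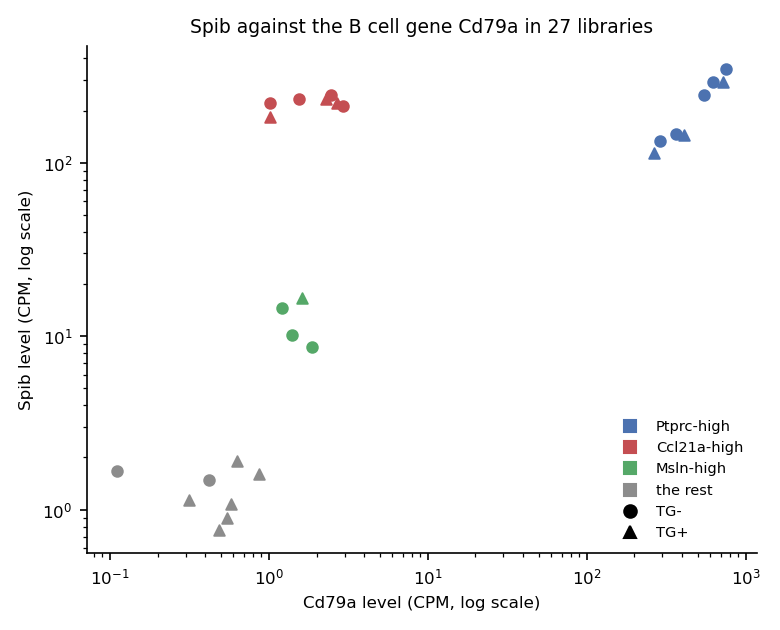
Spib against Cd79a, both in CPM on log axes, for the 27 libraries coloured by class. In the Ptprc-high libraries Spib was 0.354 to 0.466 of Cd79a, while the Ccl21a-high libraries had as much Spib with at most 2.92 CPM of Cd79a.

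In the Msln-high libraries, where Spib was at 8.71 to 16.6 CPM, Cd79a was at 1.21 to 1.87 CPM, and a part of B cell RNA in that Spib was not tested. Among genes that were higher in all Ccl21a-high libraries, the Msln-high median was 5.54% of the Ccl21a-high one for Spib, 0.0691% for Ccl21a, 0.484% for Ccl19, another T cell zone chemokine, 0.0665% for Spic and 2.08% for Csf2rb, the shared chain of the GM-CSF, IL-3 and IL-5 receptors. By these shares Spib stood nearer to the Ccl21a-high level than Ccl19 or Spic did. Ccl21a itself set the classes, so its share is no yardstick. Other listed stromal genes stood nearer still, such as Enpp2, the enzyme autotaxin, at 37.1%. The next gene downstream of Spib on the same strand was Mybpc2, a myosin-binding protein gene 1336 bases away. Unlike Spib, it was higher in the Msln-high libraries, at 13.6 to 20.8 CPM, than in the Ccl21a-high ones at 3.06 to 5.78 CPM. Mybpc2 transcripts start past the end of Spib and run away from it. Pold1, a DNA polymerase subunit gene 674 bases upstream, ran from 10.8 to 22.2 CPM in the Ccl21a-high and 16.9 to 24.0 CPM in the Msln-high libraries. It is read towards Spib on the same strand, and whether its transcripts add to the Spib count was not tested.

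Markers of the other cells in which Spib is known were then read. Siglech, a plasmacytoid dendritic cell receptor, had a median of 0.0914 CPM in the Ccl21a-high libraries against 14.2 CPM in the Ptprc-high ones. Tlr7 and Tlr9, nucleic acid sensors of those cells and of B cells, had medians of 0 and 0.158 CPM against 14.9 and 87.2 CPM. The 14 genes of that list summed to 113 to 145 CPM in the Ccl21a-high libraries, most of it from Lag3 (median 88.6 CPM) and Bst2 (29.4 CPM). The sums were 230 to 386 CPM in the Ptprc-high and 71.4 to 124 CPM in the remaining 8 libraries. Of the 14, 13 had a mean of at least 1 CPM over the 27 libraries. Of these, 1 was higher in all Ccl21a-high libraries than in all 12 others low in Ptprc (Lag3). Lower in all of them were 3 (Klk1, Irf7 and Smim5), where 6.44% of all genes were higher and 10.8% lower. Gp2, the M cell receptor for type 1 pili, had at most 0.183 CPM in the Ccl21a-high libraries, while the 8 remaining libraries reached 179 CPM. Gp2 is also a gene of pancreatic acinar cells, and 12 acinar genes summed to 127 to 14273 CPM in the remaining and at most 3.13 CPM in the Ccl21a-high libraries. Their part in the Gp2 difference was not tested. Of the 13 M cell genes, 12 had a mean of at least 1 CPM. Of these, 3 were higher in all Ccl21a-high libraries than in all 12 others low in Ptprc (Ccl9, Aif1 and Clu). Lower in all Ccl21a-high libraries were 2 (Gp2 and Anxa5). Across 14965 genes with a mean of at least 1 CPM over the 27 libraries, 6.44% were higher in all 7 Ccl21a-high libraries than in all 12 others, and 10.8% were lower. The M cell list summed to 4674 to 7940 CPM, of which Clu alone gave a median of 5176 CPM. Aire and Fezf2, regulators of antigen expression in thymic medullary epithelium, had at most 0.155 and 0 CPM, and that list summed to 24.3 to 64.0 CPM, lower than the 121 to 677 CPM of the Msln-high class. Of its 12 genes, 8 had a mean of at least 1 CPM. Of these, 2 were higher in all 7 Ccl21a-high libraries than in the 12 others (Krt5 and Cd80, up to 26.3 and 7.87 CPM). Lower in all 7 were 3 (Epcam, Cldn3 and Cldn4), against the 6.44% and 10.8% of all genes.

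Target genes of PU.1 were high in the Ptprc-high class and low in the Ccl21a-high one, Csf2rb and a few others apart. Tyrobp, Itgam, Cybb and Lyz2, genes of macrophages and granulocytes known to depend on PU.1, had medians of 0.155, 0.0638, 0.312 and 2.38 CPM in the Ccl21a-high libraries and 130, 22.3, 177 and 2333 CPM in the Ptprc-high ones. Csf1r, the macrophage growth factor receptor, was at 1.92 to 3.96 CPM there, lower than in every other library, since the Msln-high class had 92.3 to 105 CPM and the remaining one 4.13 to 28.8 CPM. Of the 20 listed genes, 1 was higher in all 7 Ccl21a-high libraries than in all 12 others (Csf2rb) and 1 lower (Csf1r). Among all genes, 6.44% were higher and 10.8% lower. Csf2rb had 48.4 to 104 CPM in the Ptprc-high, 12.1 to 30.0 in the Msln-high and 0.945 to 4.13 CPM in the remaining libraries. In the Ccl21a-high class it reached 911 to 1256 CPM. It made up most of the 1016 to 1375 CPM to which the 20 genes of the list summed in that class, and its partner chain Csf2ra stayed at 9.34 to 12.7 CPM.

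Of the red pulp macrophage genes that Spic is known with, several were near 0 beside it and others were high. Cd163, a haemoglobin scavenger receptor, Adgre1, which encodes the macrophage marker F4/80, and Treml4 had medians of 0 CPM in the Ccl21a-high libraries, against 90.4, 189 and 8.71 CPM in the Ptprc-high ones. Slc40a1, the iron exporter ferroportin, had a median of 0.937 CPM, below all 12 other libraries low in Ptprc. Of the 19 genes, 10 had a median of at least 1 CPM in the Ccl21a-high class. A mean of at least 1 CPM over the 27 libraries was reached by 18. Of these, 3 were higher in all Ccl21a-high libraries than in the 12 others, against 6.44% of all genes. They were Vcam1, an adhesion molecule that stromal cells share with red pulp macrophages (674 to 1119 CPM), Slc11a1, an endosomal metal transporter (8.91 to 12.9 CPM), and Timd4, a receptor for phosphatidylserine (10.6 to 18.3 CPM). Hmox1, the haem-degrading enzyme, had a median of 48.8 CPM against 16.3 CPM in the remaining libraries, with overlapping ranges between the Ccl21a-high and Msln-high classes (39.8 to 85.8 and 11.4 to 44.8 CPM). The list summed to 2212 to 3386 CPM in the Ccl21a-high, 1569 to 3879 in the Ptprc-high and 2702 to 5474 CPM in the remaining libraries, with overlapping ranges.

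Partner factors of the branch were mixed. Irf8, with which PU.1 and SPIB bind DNA, had 204 to 228 CPM in the Ccl21a-high libraries and 285 to 464 CPM in the Ptprc-high ones, against 6.80 to 15.8 CPM in the 12 others. Irf4, its relative, had a median of 5.76 CPM in the Ccl21a-high and 220 CPM in the Ptprc-high class. Of 16 partner genes, 3 were higher in all 7 Ccl21a-high libraries than in the 12 others (Irf8, Cebpa and Tcf3), 1 was lower (Id2), 10 overlapped and 2 had a mean under 1 CPM, where 6.44% of all genes were higher and 10.8% lower. Cebpa, a myeloid and adipose factor, ran from 116 to 196 CPM against at most 54.4 CPM. The AP-1 factor Jun, which binds PU.1, was the most abundant of the list in that class, with a median of 3336 CPM, and its range overlapped that of the 12 others.

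Within the Ets family, Spib had the highest level per kb of 26 genes in both the Ccl21a-high and the Ptprc-high class, but ranked only 13 in the Msln-high and 20 in the remaining libraries. The next genes in the Ccl21a-high class were Erf, a repressor, at 28.4 CPM per kb, Elk4 at 20.2, Ets2 at 17.7, Etv6 at 17.2 and Ets1 at 14.1. Erf, Elk4 and Ets2 were within the top 4 of the remaining libraries as well, at 21.5, 21.6 and 19.4 CPM per kb. Spic ranked 9 in the Ccl21a-high class. Ets1, known from lymphocytes and endothelium, was the only other gene of the family that was higher in all 7 Ccl21a-high libraries than in the 12 others, and Etv5, Elf3 and Ehf were lower in all 7. Of the rest, 16 overlapped and 4 had a mean under 1 CPM, where 6.44% of all genes were higher and 10.8% lower. Ehf and Elf3, factors of epithelia, had medians of 24.2 and 14.5 CPM per kb in the remaining libraries and 0.0530 and 0.188 in the Ccl21a-high ones.

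**Figure D3:**
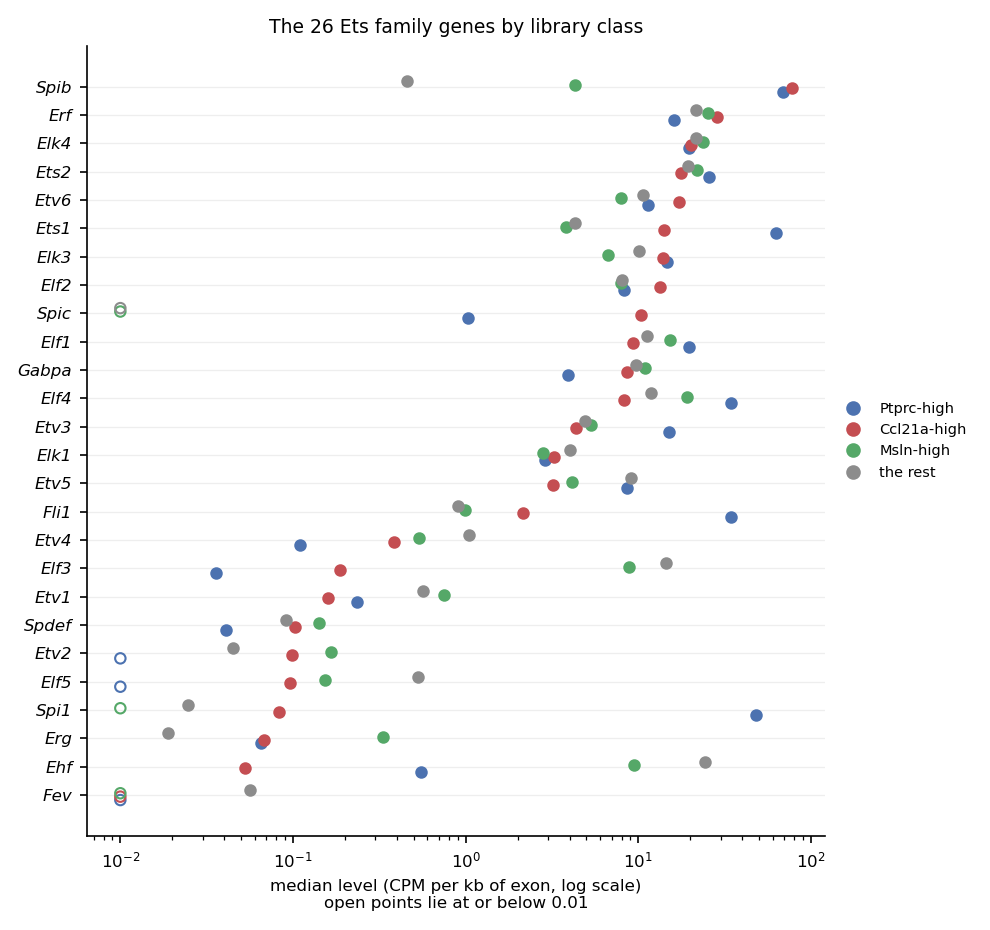
Median level of the 26 Ets family genes in CPM per kb of exon (log axis) in each class, ordered by the Ccl21a-high class. Spib led the Ccl21a-high class at 77.5 CPM per kb, ahead of Erf at 28.4, and fell to 0.456 in the remaining libraries, while Elk4 lay between 19.6 and 23.8 in all 4 classes.

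Genes of the RANK and noncanonical NF-kB pathways, which drive Spib in M cells and thymic epithelium, were high in the same libraries. Of 17 listed genes, 8 were higher in all Ccl21a-high libraries than in the 12 others (Tnfsf11, Ltb, Relb, Nfkb2, Map3k14, Traf2, Birc3 and Tnfsf13b), 1 was lower (Tnfrsf11b) and 8 overlapped, against the 6.44% and 10.8% of all genes above. The list held genes known to be high in lymphoid stroma and was made with earlier results of these libraries known, so the count is no independent evidence of a link. Tnfsf11, which encodes RANKL, ran from 11.4 to 24.7 CPM against at most 0.947 CPM in the 12 others. Tnfrsf11a, which encodes its receptor RANK, was at 0.0638 to 1.03 CPM, under the 5.49 to 13.0 CPM of the Msln-high class, and Tnfrsf11b, the decoy receptor osteoprotegerin, at 1.14 to 5.14 CPM against 21.3 to 163 CPM in the 12 others. Relb and Nfkb2, the subunits of the noncanonical dimer, ran from 77.9 to 96.1 CPM and from 278 to 362 CPM, against at most 51.4 and 174 CPM. Map3k14, the kinase NIK that starts the pathway, ran from 76.1 to 121 CPM against at most 45.7 CPM. Ltbr, the lymphotoxin beta receptor, overlapped between the Ccl21a-high and remaining libraries (70.0 to 84.7 and 62.9 to 104 CPM). The list summed to 1466 to 1681 CPM in the Ccl21a-high, 939 to 1289 in the Ptprc-high, 791 to 869 in the Msln-high and 604 to 669 CPM in the remaining libraries.

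**Figure D4:**
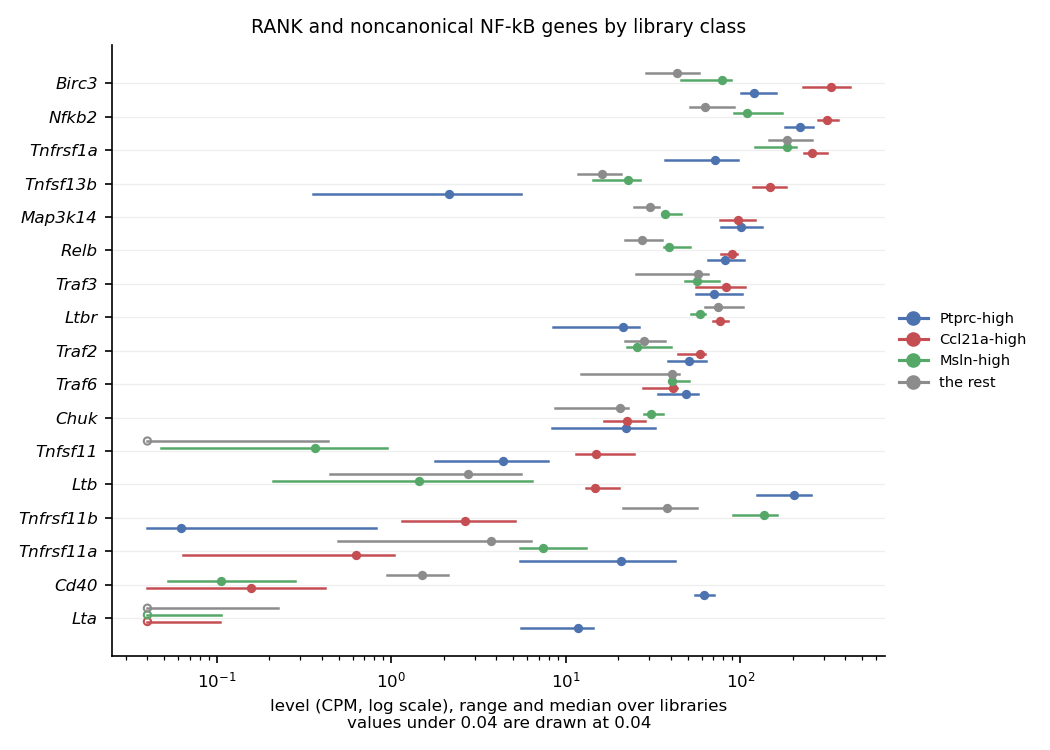
Range and median over libraries (CPM, log axis) of 17 RANK and noncanonical NF-kB genes in each class. Relb, Nfkb2, Map3k14 and Birc3 lay highest in the Ccl21a-high and Ptprc-high classes, the 2 classes high in Spib, while Tnfrsf11a was low in the Ccl21a-high class.

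The Ccl21a-high libraries also carried genes of lymphoid tissue stroma and of contractile cells around vessels. Of 20 lymphoid stroma genes, 15 were higher in all 7 than in all 12 others (6.44% of all genes were), among them Ccl19 (636 to 984 CPM), Cxcl13, the B cell follicle chemokine (227 to 448 CPM), Madcam1, an adhesion molecule (22.9 to 37.7 CPM), and Cxcl12, a chemokine of reticular cells (4173 to 6042 CPM). Ccl21a itself set the class and is among the 15. Of 10 pericyte and smooth muscle genes, 9 had a mean of at least 1 CPM. Of these, 5 were higher in all 7 as well (Acta2, Tagln, Notch3, Rgs5 and Des) and 1 was lower (Cspg4). That list summed to 3247 to 4679 CPM in the Ccl21a-high, 269 to 407 in the Msln-high and 194 to 313 CPM in the remaining libraries, and its part in the Spib level was not tested. Prox1 and Cdh5, defining genes of lymphatic and blood endothelium, had medians of 1.73 and 1.66 CPM. In the remaining libraries these medians were 139 and 0.470 CPM, and which cells gave that Prox1 was not tested. Other lymphatic genes were mixed. Flt4 and Lyve1 had higher medians in the Ccl21a-high than in the remaining libraries (16.1 and 2.29 against 1.26 and 0.336 CPM). Ackr2 and Ackr4 had lower ones (2.83 and 0.671 against 56.3 and 38.8 CPM). The lymphatic list summed to 25.7 to 58.6 CPM, less than the 116 to 307 CPM of the remaining libraries, and the blood endothelial list to 188 to 306 CPM against 348 to 623 CPM. Of 10 lymphatic genes, 8 had a mean of at least 1 CPM. Of these, 1 was higher in all 7 than in the 12 others (Stab2) and 2 were lower (Prox1 and Ackr4). Of 13 blood endothelial genes, 11 had such a mean. Of these, 2 were higher (Vwf and Glycam1) and 0 lower, where 6.44% of all genes were higher and 10.8% lower.

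Among 14965 genes, ranked by the ratio of class medians (each plus 1 CPM) of the Ccl21a-high libraries to the 12 others low in Ptprc, Spib was number 14, Spic number 33 and Spi1 number 3185. The members were chosen with these levels known, so the ranks are a description. Being higher in all Ccl21a-high and all Ptprc-high libraries than in all 12 others was shared by 1.6% of genes, Spib and Spic among them.

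Likeness to Spib was measured as Pearson's r of log2(CPM + 1). Over the 19 libraries low in Ptprc, the 8 most alike of 9275 genes were Csf2rb, Ltbp2, Bst1, Serpina3i, Serpina3g, Angpt2, Cntfr and Relt, with r from 0.994 to 0.987, and Spic came 200th at 0.942. Bst1, a surface enzyme known from bone marrow stroma, had 201 to 438 CPM in the Ccl21a-high, 4.07 to 6.89 in the Msln-high and at most 0.163 CPM in the remaining libraries, the same 3 steps as Spib. Over all 27 libraries the 8 most alike were Relt, Tmem173, Relb, Prkcb, Map3k14, Tnfaip3, H2-Q7 and Uvrag, with r from 0.977 to 0.959. Tnfaip3, an inhibitor of NF-kB, ran from 498 to 930 CPM in the Ptprc-high, 433 to 785 in the Ccl21a-high, 48.4 to 156 in the Msln-high and 24.8 to 70.6 CPM in the remaining libraries. Over those 27, Spib had r of 0.791 with Spic and 0.559 with Spi1. The genes most alike to Spi1 were Gna15, Dnase1l3, Themis2, Sla and Tnfaip8l2, all at 0.998 and all genes of leukocytes. Those most alike to Spic were Csf2rb2, Ip6k3, Pde1b, Gm10851 and Serpina3f, from 0.983 to 0.976, and Tnfsf11 was number 12 at 0.968. The libraries share their class, depth and sort, and the classes lie far apart, so each r mainly describes the steps between classes. By ranks (Spearman), 0 of the 8 genes over 19 libraries and 3 of the 8 over 27 were still among the top 8.

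The study's own contrasts, between labelled groups, were then fitted across all genes with edgeR's quasi-likelihood test. In each of the 5 comparisons, 0 genes passed a false discovery rate of 0.05, which is 0% of 13819 to 18396 genes tested. At an unadjusted p under 0.05, 1402 genes were found for the transgene in libraries labelled islet CD45, 920 in gp38-high, 273 in gp38-low and 981 in lymph node FRC, and 6801 for islet gp38 against lymph node FRC. With DESeq2 the counts were 684, 31, 0, 924 and 4815. The comparison of islet gp38 with lymph node FRC uses the same libraries as 3 of the transgene comparisons.

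Spib in the labelled islet CD45 libraries was 246, 234, 220 and 349 CPM without and 16.6, 1.61, 233 and 0.761 CPM with the transgene. Of the TG+ libraries, only replicate 3, which is Ccl21a-high, fell among the TG- values. The log2 difference (TG+ minus TG-) was -2.25 ± 1.58 (SE; edgeR adjusted p = 0.637). For Spic it was -1.19 ± 2.12 (edgeR adjusted p = 0.848). Without the TG+ replicate 3, 519 genes passed, Spib differed by -5.72 (edgeR adjusted p = 0.063) and Spic by -10.4 (edgeR adjusted p = 0.0237). Every TG- library was then Ccl21a-high or Ptprc-high and every TG+ library Msln-high or in the remaining class. Transgene and class cannot be told apart in that fit. Spi1 did not pass the low-count filter here or in the gp38-low fit, and its CPM was at most 0.258 in 7 of the 8 libraries labelled islet CD45 and 87.1 in the other.

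In the labelled gp38-high libraries Spib was 8.71 and 290 CPM in the TG- pair and 1.13 and 1.91 CPM in the TG+ pair. Its log2 difference was -6.86 ± 3.32, with -10.46 ± 5.03 for Spi1 and -8.28 ± 5.33 for Spic (SE; edgeR adjusted p = 0.663 for each). The TG- pair held 1 Ptprc-high and 1 Msln-high library, and both TG+ libraries were in the remaining class. Without the Ptprc-high one, TG- replicate 2, the Spib difference was -2.21 and that of Spi1 0.29.

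Of the groups labelled gp38-low, the TG- one held all 4 classes and the TG+ one 2 of them. Spib was 133, 1.67, 214 and 14.5 CPM in the TG- and 183, 1.08, 222 and 0.892 CPM in the TG+ libraries. The log2 differences were 0.06 ± 1.85 for Spib and 0.37 ± 2.26 for Spic (SE; edgeR adjusted p = 0.999 for both), and the sign of each turned when TG- library 2 or 4 or TG+ library 1 or 3 was left out.

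In the libraries labelled lymph node FRC, Spib was 1.48, 10.2, 146 and 247 CPM in the TG- and 291, 114 and 145 CPM in the TG+ libraries. Spi1, which stromal cells should lack, was at 123 and 138 CPM in 2 of the TG- and at 75.8 to 145 CPM in all 3 TG+ libraries. The log2 differences were 0.97 ± 1.44 for Spib, 0.73 ± 2.01 for Spi1 and 1.10 ± 1.61 for Spic (SE; edgeR adjusted p from 0.889 to 0.913). Single libraries moved them by over 1.5 times. Spib was 2.08 without TG- replicate 4 and 0.40 without TG+ replicate 2, Spi1 1.53 without TG- replicate 4 and 0.31 without TG- replicate 2, and Spic 2.23 without TG- replicate 3 and 0.27 without TG+ replicate 3.

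Islet gp38 libraries against lymph node FRC libraries differed by -2.08 ± 1.21 for Spib, -5.22 ± 1.86 for Spi1 and -1.30 ± 1.52 for Spic (log2, SE; edgeR adjusted p = 0.204, 0.102 and 0.524). Without gp38-high TG- replicate 2, a Ptprc-high library, the differences were -3.23, -7.89 and -3.31. Without gp38-low TG- replicate 1, also Ptprc-high, 3720 genes passed and Spi1 differed by -7.70 (edgeR adjusted p = 0.0318). DESeq2 on all 19 libraries gave -5.28 for Spi1 (adjusted p = 0.00637). The 7 lymph node FRC libraries held 5 of the 7 stromal-labelled libraries that were Ptprc-high, and the part of the classes in this difference was not tested.

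Other genes of the family and the NF-kB pathways were read in the same fits. Among the 26 Ets genes, 19 to 23 passed the low-count filter in a fit and 0 were called in any of the 5. The medians of their log2 differences ran from -0.27 (gp38-high) to 0.26 (lymph node FRC), against -0.20 and 0.03 over all genes tested in the same fits. For the RANK and NF-kB list, with 15 to 17 genes tested, the medians were -1.62 and 0.54 in those fits, with 0 called.

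**Figure D5:**
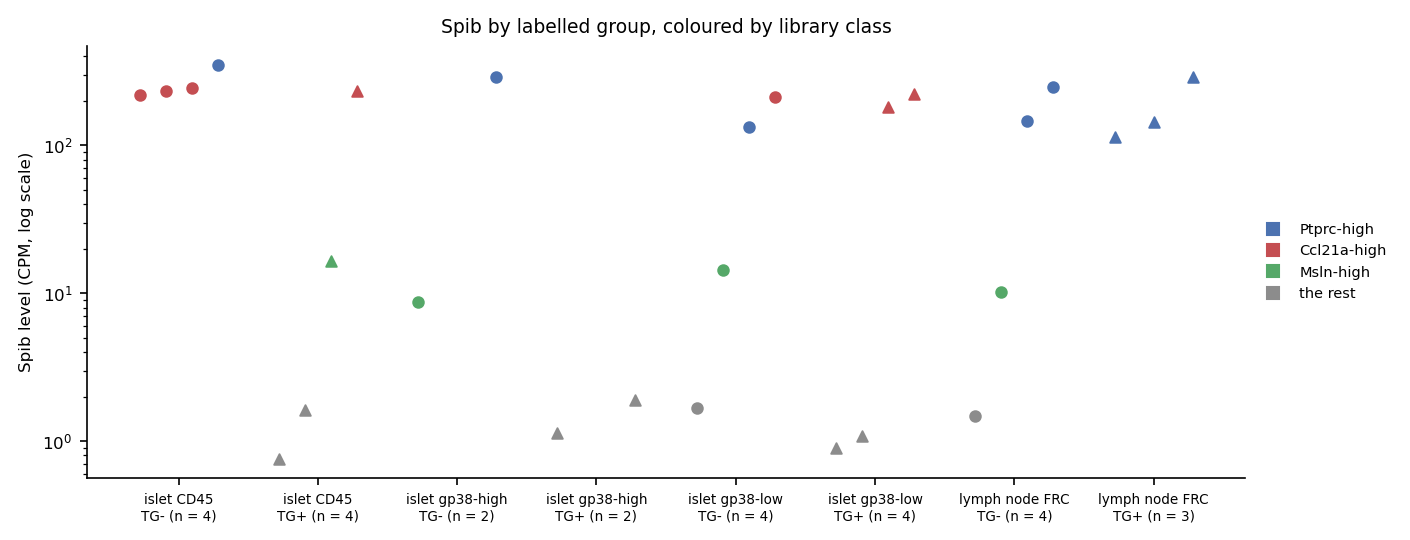
Spib in CPM (log axis) in each library by labelled group, coloured by class, circles for TG- and triangles for TG+. In 5 of the 8 labelled groups, libraries of a class high in Spib stood beside libraries of a class low in it.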

How the data were processed

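Total RNA of sorted cells was sequenced after ribosomal RNA removal (KAPA RNA HyperPrep with RiboErase, per the labels' protocols). The submitters' processing notes name STAR 2.5.2a, Trim Galore 0.4.3, bcl2fastq 2.17 and the build mm10. The authors deposited raw read counts per gene for each library, laid out as STAR writes them. For its annotation, the release is not given in sources used here. The reverse-strand counts were used, since the forward strand held 6.67% to 15.3% of stranded reads. Reads in no gene (51.7% to 79.7% of all) were left out. Symbols came from GENCODE M21 for 54409 of 54446 identifiers.

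CPM and CPM per kb of merged exon were computed, and classes were cut at the limits given. Labelled groups were compared with edgeR 4.0.16 in R 4.3.3 (TMM, filterByExpr, robust quasi-likelihood F test, Benjamini-Hochberg adjustment at 0.05), and DESeq2 1.42.0 was an alternative. An SE is the log2 difference divided by the square root of F. The transgene was fitted within each labelled population alone, except gp38-high, which was fitted with the 12 islet gp38 libraries. Tissues were fitted over 19 libraries. The fits were also run on simulated data with known changes. Those data had no mix of classes within a group, so they do not show what the fits can find here. A 95% interval of a ratio of summed reads is an exact binomial one and, like the floor of 3 reads, covers counting error only.

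The members, lists and tests were chosen with earlier results of these data known. Text names the 3 members, the class genes, up to 5 members of each list with the highest level and its defining members, the Ets genes highest in the Ccl21a-high class, genes most alike (at least 20 CPM in a library, 5 for Spic) and neighbours within 5000 bases. Other genes, such as those that made up a small count, were named after their values were seen. A gene that this rule names is not reported here.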

Additional observations from a re-analysis of the deposited data

Results flagged for a closer look

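Among 27 sets of values (each member in each labelled group or class of 4 to 8 libraries), 7 had 1 library far from the others by Dixon's rule. Its chance rate of about 1 in 20 holds for independent, normally distributed values. The labelled groups mix classes, libraries recur across sets and some counts are near 0, so the 7 cannot be read against that rate. In the group labelled islet CD45 TG+, replicate 3 stood apart with 233 CPM of Spib and 58.3 CPM of Spic, and it is the group's Ccl21a-high library. In the group labelled islet CD45 TG-, replicate 4 stood apart with 87.1 CPM of Spi1, and in gp38-low TG- replicate 1 did so with 135 CPM of Spi1. Both are Ptprc-high. In gp38-low TG-, replicate 3 stood apart with 39.6 CPM of Spic, and it is Ccl21a-high. Within the classes, the library labelled gp38-low TG+ replicate 3 had the most Spi1 of the Ccl21a-high libraries, 0.833 CPM or 8 reads, and gp38-low TG+ replicate 4 the most of the remaining ones, 0.274 CPM.

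Reads on the strand opposite to Spib, which no comparison used, were at most 25 in a library (labelled islet CD45 TG- replicate 1), above the 3 reads that a count of 0 allows. They were 0.261% to 0.569% of the Spib reads on both strands in the Ccl21a-high libraries.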

How the results depend on the processing

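Under 5 other scalings or limits, 56 of 60 class medians of the 3 members moved by less than 1 SD. Leaving Gm26917 and mitochondrial genes out of the total moved 4, among them Spib to 270 and Spic to 51.1 CPM in the Ccl21a-high libraries. By Spearman correlation, 0 of the 8 genes most alike to Spib over 19 libraries and 3 of 8 over 27 kept their place in the top 8. DESeq2 called 684 genes for the transgene in labelled islet CD45 (604 higher in TG+), 31 in gp38-high, 0 in gp38-low and 924 in lymph node FRC (2 higher in TG+), and 4815 for islet gp38 against lymph node FRC, where edgeR called 0. The cause was not tested. No gene was called with relative log expression size factors, no filter or unstranded counts. With each library left out in turn, the number called ran from 0 to 519 (islet CD45) and from 0 to 3720 (islet gp38 against lymph node FRC), and was 0 in the other 3 comparisons. The log2 differences then ran from -11.4 to 0.29 (Spi1) and -9.14 to 0 (Spic) in gp38-high, and from -0.76 to 1.07 (Spib) and -0.28 to 2.91 (Spic) in gp38-low.

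With the replicate number as a block (replicate block), 0 genes were called in each of the 5 comparisons, and the gp38-low difference of Spib was -0.96. It moved the islet CD45 differences to -5.46 (Spib) and -7.38 (Spic). Deviations of same-numbered libraries correlated at -0.134 to 0.641, over 0.1 in 3 of 4 gp38-low and 1 of 4 islet CD45 pairs but in every pair of no population, so the numbers were not taken as pairs. Depth limits Spi1 outside the Ptprc-high class, where a library held 0 to 8 reads, and Spic in the Msln-high and remaining classes, where one held 0 or 1.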
